A study of Rattus norvegicus with 12 samples.

Results

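The ERK feedback genes are genes whose transcription follows the activity of the ERK kinases and whose products act back on the same pathway or carry its signal on. The set was fixed by name and holds 10 of the 21556 genes in the expression table: the dual-specificity phosphatases Dusp4, Dusp5 and Dusp6, the Sprouty genes Spry1, Spry2 and Spry4, the Spred genes Spred1 and Spred2, and the ETS transcription factors Etv4 and Etv5. All 10 were found under these symbols. The RNA came from ND7/23 cells, which are hybrids of rat sensory neurons (dorsal root ganglion) with the mouse neuroblastoma N18Tg2. The 12 libraries fell into 4 groups of 3, all collected at 6 h: control cells, cells with 100 μM menthol, an agonist of the cold receptor TRPM8, cells with 100 ng/ml Wnt3a, a ligand that activates β-catenin signaling, and cells with menthol and Wnt3a together at these doses. The comparisons ask what menthol did with and without Wnt3a, and the members were followed across them as a transcriptional readout of ERK activity. ERK phosphorylation itself was not analysed here.

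In this pathway a growth factor receptor activates RAS, which leads through the RAF and MEK kinases to ERK. Active ERK enters the nucleus and induces early genes, among them its own brakes. The Dusp proteins remove phosphate from ERK, Dusp6 in the cytoplasm and Dusp4 and Dusp5 in the nucleus. Sprouty proteins are membrane-associated inhibitors that act between the receptor and RAF, and Spred proteins bring the RAS inhibitor neurofibromin to the membrane. Etv4 and Etv5 are transcription factors that are induced by FGF and other receptors and that activate further targets. In sensory neurons the pathway responds to nerve growth factor and to calcium entry.

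Reads on genes numbered 36914010 to 38836269 per library, a spread of 1.05 times. Values are FPKM, that is reads scaled by gene length and by the reads in the library, and can therefore be compared between genes. The replicates of a group are not stated to be separate cultures, so the p-values measure the spread between these libraries only. The labelled cell identity was checked against marker genes. Of 12 neuron and neuroblastoma markers, 11 were in the table and only Uchl1 and Isl1 reached a mean of 0.5 FPKM, while Tubb3, Stmn2, Prph, Nefl, Nefm, Gap43, Scn9a and Elavl4 lay under it, the last with at most 3 reads in any library. The summed level of this list, led by Uchl1, was 105 to 114 FPKM in control cells, 111 to 122 with menthol, 113 to 121 with Wnt3a and 114 to 126 with both. The fibroblast markers were led by Col1a2, and 5 of 7 reached the minimum. Their summed level was 139 to 148 FPKM in control cells, 127 to 131 with menthol, 131 to 138 with Wnt3a and 127 to 129 with both. Those of glia, skeletal muscle, leukocytes and endothelium summed to 1.59 to 10.3 FPKM each. The part of these differences in the member values was not tested. The reads were aligned to the rat genome, so how reads from the mouse chromosomes of the hybrid were assigned is unknown. A lower level of a member in all cells and a lower share of cells that express it cannot be told apart in these bulk libraries.

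The levels of the members differed little between the treatments: across the 12 libraries the highest value of each of 9 members was 1.12 to 1.39 times its lowest, and the other, Spry1, was near 0. In control cells the order of their levels ran from Dusp6 (94.0 ± 3.8 FPKM, SD, n = 3) and Dusp5 (77.7 ± 1.3) through Spry2 (24.3 ± 0.94), Etv5 (24.0 ± 0.33), Etv4 (22.7 ± 0.77) and Spred2 (18.1 ± 0.25) to Spred1 (9.31 ± 0.13), Dusp4 (7.06 ± 0.28), Spry4 (2.67 ± 0.052) and Spry1, which had at most 1 read in a control library. Dusp6 and Dusp5 exceeded 96.4% and 95.8% of all genes in their mean level. Spry2 and Etv5 overlapped in every group, and Etv5 and Etv4 overlapped in every group but the control, so the order among these 3 genes is not resolved. All other neighbours in the order were separated in each of the 4 groups, down to the pair of Dusp4 and Spry4. The median coefficient of variation within groups was 4.06% for the 9 members above the minimum of 0.5 FPKM and 5.26% for all 11451 genes tested.

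**Figure D1:**
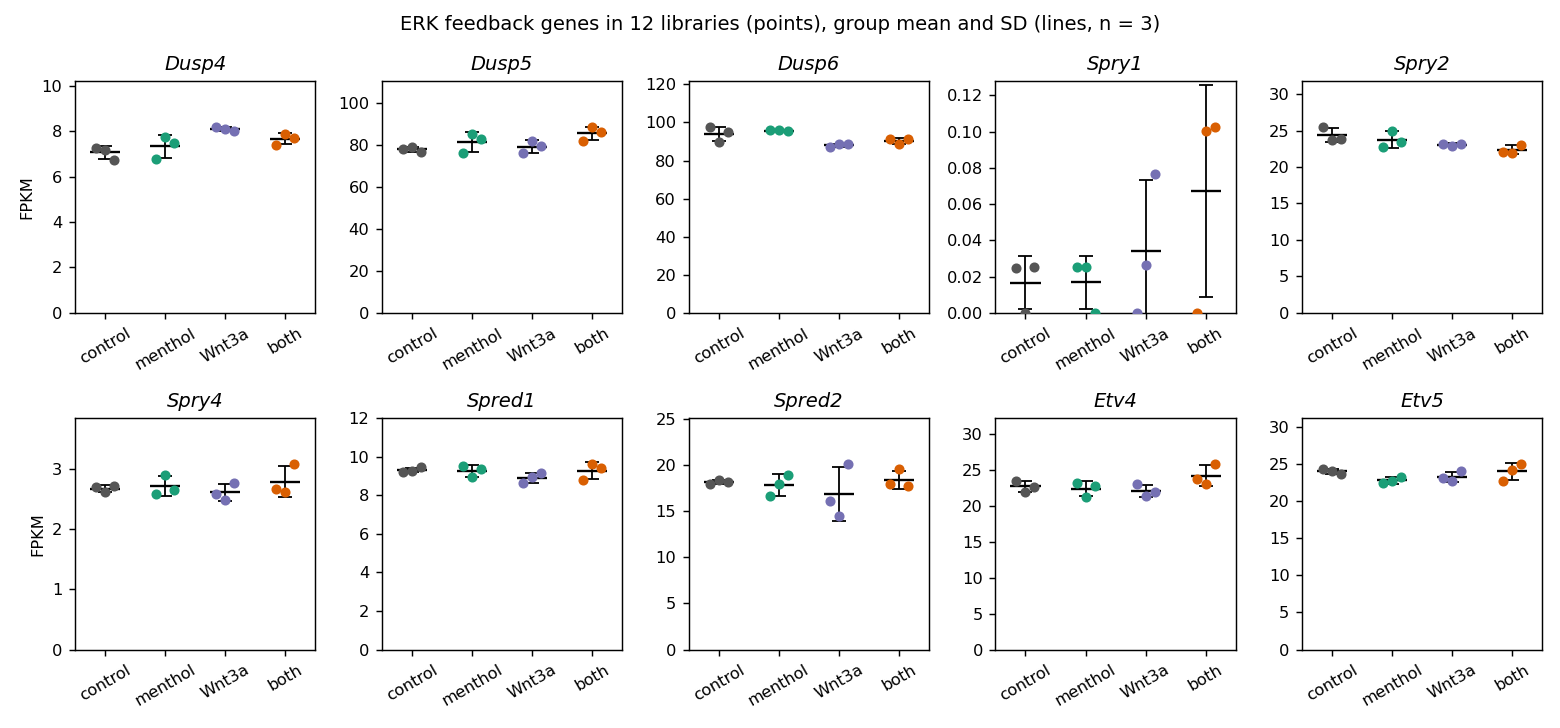
FPKM of the 10 ERK feedback genes in each library (points), with the group mean and SD (lines, n = 3), for control, menthol, Wnt3a and menthol with Wnt3a ("both"). Each panel has its own axis that starts at 0. Dusp5 and Dusp6 lie between 75.9 and 97.4 FPKM, and Spry1 does not exceed 0.102 FPKM.

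Over 8 comparisons, none of the 9 members tested was called at an adjusted p under 0.05 (limma on log2(FPKM + 0.1), Benjamini-Hochberg adjustment over 11451 genes). These were 72 pairs of a member and a comparison, with adjusted p-values from 0.0751 to 0.998, of which 13 had an unadjusted p under 0.05. With limma voom on the recovered reads, 1 pair was called, Dusp6 in the libraries with Wnt3a against those without. Over the 5 comparisons of 2 groups, the member changes ran from −0.12 to 0.19 on the log2 scale with standard errors of 0.030 to 0.090. In these 5 comparisons the 95% intervals of all members lay between −0.31 and 0.33, so that changes beyond 0.805-fold or 1.26-fold lie outside the interval of every member tested. These bounds hold for the limma fit with all libraries. Without Wnt3a library 3 the Spred2 interval reached −0.389 for Wnt3a against control and 0.405 for the combination against Wnt3a.

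Menthol against control called 0 of 9 members, beside 0.105% of all genes tested, and 0 members had an unadjusted p under 0.05, beside 9.34% of all genes. The median member change was −0.0073 and the median over all genes −0.0016 on the log2 scale. Etv5 was the 1 member whose groups did not overlap, beside 15.9% of all genes. Wnt3a against control called 0 members (0.437% of all genes), 2 had an unadjusted p under 0.05 (15.1% of all genes), and 4 had groups that did not overlap (20.2%). The 2 were Dusp4, which was higher, and Dusp6, which was lower. The other pair without overlap was Spry2 and Spred1, both lower with Wnt3a.

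When menthol was added to Wnt3a, 0 members were called against Wnt3a alone (0.0524% of all genes). An unadjusted p under 0.05 was found for 2 members, Dusp5 and Etv4, both higher (14.5% of all genes), and 4 members did not overlap (17.7%). Against menthol alone the combination called 0 members (0.0961% of all genes), with 2 at an unadjusted p under 0.05, Dusp6 and Etv4 (6.72%), and 1 without overlap, Dusp6 (11.3%). Against control it called 0 members (0.83% of all genes), with 2 at an unadjusted p under 0.05, Dusp5 and Spry2 (13.5%), and 3 without overlap (20.5%). These comparisons share libraries, and their values are not independent of each other.

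The 6 libraries with each agent were also set against the 6 without it in the same fit. The menthol main effect called 0 members (1.15% of all genes), 1 had an unadjusted p under 0.05 (15.5%), and 0 were without overlap (1.54%). For Wnt3a, 0 members were called (0.803% of all genes), 3 had an unadjusted p under 0.05 (14.2%), and 0 were without overlap (1.17%). The interaction, which asks whether menthol acted otherwise in the presence of Wnt3a, called 0 members (0.0% of all genes), and 1 had an unadjusted p under 0.05 (6.99%). By limma voom the interaction also called 0 members and had 2 at an unadjusted p under 0.05. In size, the median absolute change of the members was 0.041 for the menthol main effect and 0.036 for the Wnt3a main effect, beside 0.045 and 0.043 over all genes tested. Calls at the share of all genes would give fewer than 1 of 9 members in each comparison, so the counts of 0 do not set the members apart.

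**Figure D2:**
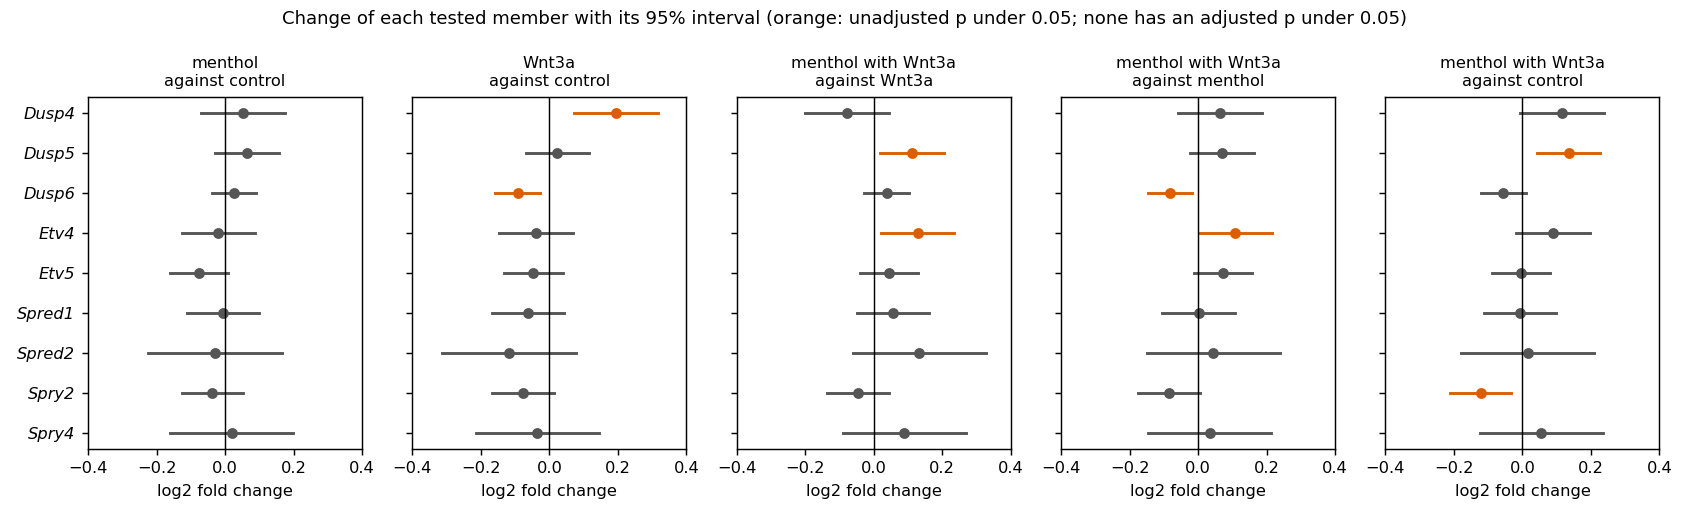
Log2 fold change of each of the 9 members tested (points) with its 95% interval (lines) in the 5 comparisons of 2 groups, on the log2(FPKM + 0.1) scale. Orange marks an unadjusted p under 0.05, and 0 members have an adjusted p under 0.05. The lowest interval bound is −0.31 and the highest 0.33.

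Dusp4, a nuclear phosphatase of ERK that also acts on other MAP kinases, showed the largest single change among the members. It stood at 7.28, 7.16 and 6.75 FPKM in control libraries 1 to 3 and at 6.75, 7.76 and 7.49 FPKM with menthol. With Wnt3a it was at 8.17, 8.11 and 8.004 FPKM, and with both agents at 7.41, 7.89 and 7.69 FPKM. All Wnt3a libraries lay above all control and all menthol libraries, and the combination lay between Wnt3a and control. The log2 difference of Wnt3a from control was 0.19 (SE 0.057, unadjusted p = 0.0044, limma adjusted p = 0.133), that is 14.4% higher. Over all 6 libraries with Wnt3a against the 6 without, it was 0.13 (SE 0.040, unadjusted p = 0.0067, limma adjusted p = 0.159). Between 1290 and 1570 reads per library stand behind these values.

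Dusp5, the ERK-selective nuclear phosphatase, was at 77.9, 78.8 and 76.3 FPKM in control cells. It was at 76.1, 85.2 and 82.7 FPKM with menthol and at 75.9, 81.9 and 79.2 FPKM with Wnt3a. The combination had the highest mean, with values of 81.9, 88.2 and 85.9 FPKM. All combination libraries exceeded all control libraries, whereas menthol alone overlapped with control through its first library. The combination was 9.79% above control (log2 difference 0.13, SE 0.043, unadjusted p = 0.0076, limma adjusted p = 0.181) and 8.01% above Wnt3a (0.11, SE 0.043, unadjusted p = 0.022, limma adjusted p = 0.268). Over the 6 libraries with menthol against the 6 without, Dusp5 was 6.28% higher (log2 difference 0.088, SE 0.030, unadjusted p = 0.012, limma adjusted p = 0.186).

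Dusp6, the cytoplasmic ERK phosphatase and the most abundant member, was at 97.4, 89.8 and 94.8 FPKM in control cells and at 95.8, 96.0 and 95.2 FPKM with menthol. With Wnt3a it was at 87.2, 88.5 and 88.5 FPKM, and with both agents at 91.5, 88.7 and 91.0 FPKM. The libraries with Wnt3a were the lower ones, and only control library 2 among those without Wnt3a fell within their range. Wnt3a differed from control by −0.093 on the log2 scale (SE 0.030, unadjusted p = 0.0085, limma adjusted p = 0.170), and the combination differed from menthol by −0.082 (SE 0.030, unadjusted p = 0.018, limma adjusted p = 0.605). Over the 6 libraries with Wnt3a against the 6 without, the log2 difference was −0.087 (SE 0.021, unadjusted p = 0.0012, limma adjusted p = 0.0751), a change of −5.88%. This was the member value closest to the threshold. It passed with limma voom (log2 difference −0.092, adjusted p = 0.0257) and without control library 2 (log2 difference −0.10, adjusted p = 0.0424), whereas the other alternatives gave adjusted p-values of up to 0.191.

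The promoters of Dusp5 and Dusp6 are shown because they are the 2 members with the most reads, from 8646 to 10829 per library. Their Wnt3a main effects were 0.047 and −0.087 on the log2 scale. The 95% interval of Dusp5 ran from −0.019 to 0.11 (limma unadjusted p = 0.148, adjusted p = 0.536), so its sign is not resolved. A link between the windows and these values was not tested. Each window runs from 250 bases before to 50 bases after the annotated start, 5′ to 3′ on the strand of the gene, from RefSeq on the rat build GRCr8, which is not the build mRatBN7.2 named for the reads. Dusp5 lies at chr1:262543524-262543823 (+ strand) and Dusp6 at chr7:35979354-35979653 (+ strand). Capitals mark motif matches on either strand.
Dusp5: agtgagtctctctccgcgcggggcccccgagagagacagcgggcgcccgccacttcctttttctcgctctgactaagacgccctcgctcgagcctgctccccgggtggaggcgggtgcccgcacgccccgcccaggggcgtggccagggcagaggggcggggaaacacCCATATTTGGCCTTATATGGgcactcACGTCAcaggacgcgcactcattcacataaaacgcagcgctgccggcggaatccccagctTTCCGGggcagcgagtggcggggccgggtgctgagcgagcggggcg
Dusp6: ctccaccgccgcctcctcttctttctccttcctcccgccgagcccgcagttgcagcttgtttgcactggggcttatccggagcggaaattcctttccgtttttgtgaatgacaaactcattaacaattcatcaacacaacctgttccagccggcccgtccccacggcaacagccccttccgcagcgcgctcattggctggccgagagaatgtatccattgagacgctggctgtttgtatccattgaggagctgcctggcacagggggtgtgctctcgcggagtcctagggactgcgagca
The Dusp5 window held 2 adjoining CArG boxes, the site of serum response factor, at bases 169 to 178 and 179 to 188, the CRE core TGACGT on the minus strand at bases 195 to 200, and the ETS core CCGGAA on the minus strand at bases 255 to 260. The Dusp6 window held none of the motifs searched, which says only that these letters are not in this window.

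A window was found for 8 of the 10 members, with 2 windows for Spry2 and none for Dusp4 and Etv4. The ETS core CCGGAA was in windows of 3 members, Dusp5, Spry2 and Spry4, and in 15.0% of the 33469 windows of all genes. The CRE core was in those of Dusp5 and Spred2 and in 7.94% of all windows. The AP-1 site TGANTCA (7.33% of all windows) and the TCF sites ATCAAAG (3.63%) and TTCAAAG (5.4%) were in none of the 9 member windows. The CArG box was added to the search after the sequences were seen, was found in Dusp5 only, and occurs in 1.64% of all windows. The member windows held 56 to 76.3% GC, beside a median of 51.7% over all windows, so these shares are not matched for base composition. A match is a description of the letters and was not tested as a site.

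Of the Sprouty genes, Spry2 and Spry4 were tested. Spry2, a membrane-associated inhibitor of receptor signaling, was at 25.4, 23.7 and 23.9 FPKM in control cells and at 22.8, 25.0 and 23.4 FPKM with menthol. With Wnt3a it was at 23.2, 22.8 and 23.2 FPKM, and with both agents at 22.0, 22.0 and 23.1 FPKM. The libraries of both Wnt3a groups lay below all control libraries. The combination differed from control by −0.12 on the log2 scale (SE 0.042, unadjusted p = 0.012, limma adjusted p = 0.207), and the 6 libraries with Wnt3a differed from the 6 without by −0.081 (SE 0.030, unadjusted p = 0.016, limma adjusted p = 0.228). Spry4, a further inhibitor of the same family, was lower in level, at 2.69, 2.61 and 2.71 FPKM in control, 2.58, 2.90 and 2.65 with menthol, 2.57, 2.48 and 2.76 with Wnt3a and 2.66, 2.62 and 3.07 with both. Its groups overlapped in every comparison, and its log2 difference for the Wnt3a main effect was −0.00041.

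Spry1 was at or near 0 in every library. It had 1, 0 and 1 reads in control libraries 1 to 3, 1, 1 and 0 with menthol, 0, 1 and 3 with Wnt3a, and 0, 4 and 4 with both agents, where 1 read is worth about 0.025 FPKM. At this depth Spry1 was at or under a floor of 3 reads in 10 of 12 libraries, and no fold change is given. It lay under the minimum of 0.5 FPKM and was not tested.

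The Spred genes restrain RAS. Spred1 was at 9.22, 9.25 and 9.45 FPKM in control cells, 9.52, 8.92 and 9.34 with menthol, 8.62, 8.96 and 9.15 with Wnt3a and 8.77, 9.62 and 9.44 with both. Its Wnt3a libraries lay just below its control libraries, and all its unadjusted p-values were above 0.05. Spred2 was at 17.9, 18.4 and 18.1 FPKM in control cells and at 16.6, 17.9 and 18.9 FPKM with menthol. With Wnt3a it was at 16.1, 14.4 and 20.1 FPKM, and with both agents at 17.9, 19.5 and 17.7 FPKM. Wnt3a library 3 had the highest and Wnt3a library 2 the lowest Spred2 value of all 12 libraries, and Spred2 had the widest intervals of any member. Its log2 difference of Wnt3a from control was −0.12 (SE 0.090, unadjusted p = 0.215, limma adjusted p = 0.582) with all libraries and −0.25 (SE 0.064, unadjusted p = 0.0021, limma adjusted p = 0.0637) without Wnt3a library 3. For the combination against Wnt3a the values were 0.13 (adjusted p = 0.526) with all libraries and 0.26 (adjusted p = 0.0816) without that library. Spred2 rests on 642 to 924 reads per library.

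Etv4 and Etv5 are the transcription factors of the set. Etv4 was at 23.5, 22.0 and 22.7 FPKM in control cells, 23.3, 21.3 and 22.8 with menthol, 23.0, 21.4 and 21.9 with Wnt3a and 23.7, 23.0 and 25.9 with both. Its highest value was in library 3 of the combination. The combination differed from Wnt3a by 0.13 on the log2 scale (SE 0.050, unadjusted p = 0.022, limma adjusted p = 0.268) and from menthol by 0.11 (SE 0.050, unadjusted p = 0.048, limma adjusted p = 0.732). Without this library these differences were 0.081 and 0.060. Etv5 was at 24.3, 24.1 and 23.7 FPKM in control cells, 22.4, 22.7 and 23.2 with menthol, 23.1, 22.7 and 24.0 with Wnt3a and 22.7, 24.2 and 25.0 with both. The menthol libraries lay below all control libraries, by −0.077 on the log2 scale (unadjusted p = 0.072). Its interaction was 0.12 (SE 0.056, unadjusted p = 0.0497, limma adjusted p = 0.715): menthol libraries were lower than control in the absence of Wnt3a, and the groups overlapped in its presence.

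Members were also compared with each other across the 12 libraries, on log2(FPKM + 0.1). Of 36 pairs, 26 had a Pearson's r above 0, with a median of 0.16 and a range from −0.67 to 0.61, and 0 pairs passed an adjusted p under 0.05 in a permutation test with 100000 resamples. The most negative pair was Dusp4 and Dusp6 (r = −0.67, permutation p = 0.020, adjusted p = 0.561; Spearman's rho = −0.67, permutation p = 0.020, adjusted p = 0.711). It was −0.59 without the 2 libraries farthest from the median and −0.12 within groups. The most positive was Dusp6 and Spry2 (r = 0.61, permutation p = 0.037, adjusted p = 0.561; rho = 0.45, permutation p = 0.139, adjusted p = 0.711), which was 0.24 without the 2 libraries farthest from the median, so that the pooled value rests on those, and 0.50 within groups. The mean of the members' standardized values was lowest in Wnt3a library 2 (−0.75) and highest in library 3 of the combination (0.91), and ran from −0.34 to 0.91 within the combination alone. Among the 5 other genes whose pattern was most like this mean over the 12 libraries were Trappc10 (r = 0.91), Ankrd13a (0.91), Samd4b (0.91) and Mast2 (0.91), which is a description of the same libraries.

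Upstream of the members, the core of the pathway was expressed. Of 23 genes from the adaptors through RAS, RAF and MEK to ERK and its RSK kinases, 22 were tested, and limma and limma voom called 0 in any comparison, with at most 2 at an unadjusted p under 0.05. In control cells the mean was 127 FPKM for Map2k1, which encodes MEK1, and 70.6 for Mapk3, which encodes ERK1. The smallest p-values were those of Ptpn11 and Nras for the menthol main effect (log2 differences 0.066 and −0.049, adjusted p = 0.140 and 0.347) and Rps6ka1 and Map2k1 for the Wnt3a main effect (0.11 and 0.043, adjusted p = 0.325 and 0.368). Among 20 receptors and ligands, only 8 reached the minimum. The receptors at the highest levels in control cells were Met at 19.5 FPKM and Igf1r at 15.0 FPKM, and the ligand Tgfa was at 32.9 FPKM, while Ntrk2 and Ret had at most 1 read in any library. Of these 8, limma called 0, with at most 3 at an unadjusted p under 0.05 in a comparison, and limma voom called at most 2 (Igf1r and Tgfa with Wnt3a, and Met for the menthol main effect and for the combination against control). Met and Igf1r had the smallest p for the menthol main effect (−0.10 and 0.12, adjusted p = 0.0865 and 0.336), and Tgfa and Igf1r for the Wnt3a main effect (−0.094 and −0.15, adjusted p = 0.106 and 0.212).

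Downstream, a list of 20 other ERK output genes was read beside the members, and 18 were tested. Of these, 1 rose with Wnt3a against control and 1 with the combination against control, Ier3 in both, and 0 fell. For the main effects, 2 rose with menthol, Errfi1 and Plaur, and 1 with Wnt3a, Ier3, and limma again called 0 that fell. By an unadjusted p under 0.05, Wnt3a against control had 2 higher and 8 lower of the 18 (15.1% of all genes), and the Wnt3a main effect 2 higher and 7 lower (14.2%). The menthol main effect had 7 higher and 1 lower (15.5%), and the combination against Wnt3a 6 higher and 0 lower (14.5%). The shares of all genes count both directions together. The list was chosen with earlier results of these data known, so these counts cannot be read as an enrichment. Limma voom called Epha2, Etv1, Ier3 and Myc with Wnt3a against control, and also Hbegf for the main effect, of which Epha2, Myc and Hbegf were lower, and for the combination against control it called Ier3 and Plaur as higher and Epha4 as lower. It called Ccnd1 and Errfi1 for the combination against Wnt3a and Ccnd1, Errfi1 and Plaur for the menthol main effect, all higher. Ccnd1, which encodes the cell cycle regulator cyclin D1, averaged 370 ± 14 FPKM without either agent and 394 ± 20 after menthol, against 365 ± 7.2 after Wnt3a and 399.6 ± 17 after the combination (SD, n = 3). Its menthol main effect was 0.11 (limma adjusted p = 0.0877). Myc, a growth-promoting transcription factor, was at 33.4 ± 1.8 FPKM in control and 29.3 ± 0.64 FPKM with Wnt3a (SD, n = 3; log2 difference −0.19, limma adjusted p = 0.0767). Ier3, an early response gene of growth factor and stress signals, was at 315, 314 and 320 FPKM in control, 354, 325 and 329 with menthol, 377, 371 and 350 with Wnt3a and 372, 366 and 363 with both. Its log2 difference was 0.21 for Wnt3a against control (SE 0.035, limma adjusted p = 0.0297), 0.22 for the combination against control (adjusted p = 0.0087) and 0.17 for the Wnt3a main effect (SE 0.025, adjusted p = 0.0053). The first of these calls was lost in 6 of 20 alternatives, among them without any 1 of the 3 control libraries or without Wnt3a library 1 or 2, with adjusted p-values of up to 0.125.

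Errfi1, which encodes an inhibitor of the EGF receptor, was at 272, 273 and 269 FPKM in control, 285, 287 and 289 with menthol, 256, 253 and 263 with Wnt3a and 281, 285 and 281 with both. All libraries with menthol were higher than all libraries without it, and the main effect was 0.11 (SE 0.016, limma adjusted p = 0.0063), called in all 19 alternatives. The receptor gene Egfr itself had 0 to 8 reads per library and was not tested, so feedback on this receptor is not shown here. Plaur, the urokinase receptor, was at 74.4, 68.9 and 75.5 FPKM in control, 82.2, 79.4 and 81.2 with menthol, 77.0, 76.4 and 70.4 with Wnt3a and 81.1, 82.5 and 81.5 with both. Its menthol main effect was 0.14 (SE 0.028, limma adjusted p = 0.0307), and it was lost in 7 of 19 alternatives, where adjusted p-values reached 0.080: with no FPKM minimum, with libraries centred on their median, and without control library 2, menthol library 1 or 3, or combination library 2 or 3. The median log2 difference of the 18 genes was 0.061 for the menthol main effect and −0.032 for the Wnt3a main effect, beside 0.032 and −0.00041 for the members and −0.00098 and 0.0032 for all genes tested. The way the list was chosen limits these medians too.

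**Figure D3:**
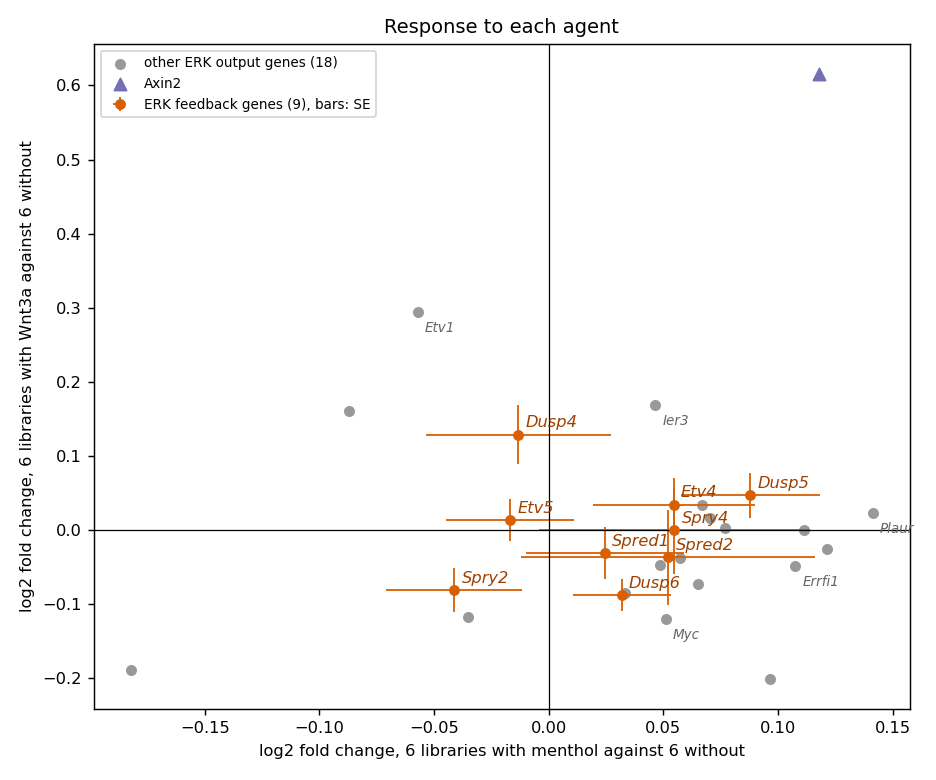
Log2 fold change of the 6 libraries with menthol against the 6 without (x axis) and of the 6 libraries with Wnt3a against the 6 without (y axis), on the log2(FPKM + 0.1) scale, for the 9 members (orange, bars are SE), 18 other ERK output genes (grey) and Axin2 (triangle). The members lie between −0.041 and 0.088 on the x axis and between −0.087 and 0.13 on the y axis, while Axin2 is at 0.62 on the y axis.

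The phosphatases linked to stress kinases and the ETS and SRF factors gave no limma call either. Of 5 such phosphatases 3 were tested, with 0 called by limma or limma voom and 0 at an unadjusted p under 0.05, and the smallest p-values were those of Dusp16 and Dusp10 with menthol (0.058 and −0.047, adjusted p = 0.688 and 0.729) and Dusp16 and Dusp1 with Wnt3a (−0.12 and −0.046, adjusted p = 0.373 and 0.549). Of 10 ETS and SRF factors 9 were tested and limma called 0, with at most 3 at an unadjusted p under 0.05, while limma voom called Srf for Wnt3a and the combination against control and for the Wnt3a main effect, and Elk1 for the menthol main effect. Srf and Ets1 had the smallest p for the Wnt3a main effect (−0.11 and −0.076, adjusted p = 0.132 and 0.179), and Elk1 and Elk4 for the menthol main effect (0.15 and 0.077, adjusted p = 0.130 and 0.226).

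A response to Wnt3a was present in the same libraries. Axin2, the feedback inhibitor of β-catenin signaling, was at 5.07, 5.07 and 4.72 FPKM in control, 4.55, 5.19 and 5.28 with menthol, 6.56, 7.31 and 7.45 with Wnt3a and 7.83, 8.71 and 8.37 with both. All libraries with Wnt3a lay above all libraries without it. The Wnt3a main effect on Axin2 was 0.62 (SE 0.051, limma adjusted p = 4.2e-05) and was called in all 19 alternatives, and the difference of Wnt3a from control was 0.51 (SE 0.072, limma adjusted p = 0.0088), which was lost in 3 of 20 alternatives: with no FPKM minimum, without control library 3 and without Wnt3a library 2, with adjusted p-values of up to 0.0563. Of 12 Wnt target genes 4 were tested, and Axin2 was the 1 that was called by limma or limma voom. When menthol was added to Wnt3a, the Axin2 difference was 0.22 (SE 0.072, unadjusted p = 0.0080, limma adjusted p = 0.201), which limma voom called. The interval of every member for the Wnt3a main effect lay between −0.17 and 0.22, below the Axin2 value.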

How the data were processed

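By the methods and the submitters' processing notes, RNA of 12 ND7/23 libraries was extracted with TRIzol, prepared with the VAHTS Universal V6 kit and sequenced as paired reads. The authors used fastp, HISAT, HTSeq-count and the rat build mRatBN7.2, deposited FPKM per gene and library, and ran DESeq2. They name R 3.2.0 for other steps, such as the clustering and enrichment. Other versions and the annotation release are not given in the sources used here. The methods describe menthol as dissolved in DMSO, and the vehicle of the control is not stated. An effect of DMSO therefore cannot be told apart from one of menthol. Stimulation of ND7/23 cells for 6 h is described in DMEM with antibiotics, with no serum listed. FPKM is relative to the library total, of which the top 10 genes took 6.01 to 6.35%.

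Groups came from the sample titles. Whole reads were recovered from the FPKM steps of 21556 of 21556 genes (relative distance up to 3.4e-13, with 1804 genes above 0 in 1 library taken as 1 read) and gave depths and a floor of 3 reads, which covers counting error only. All 12 replicate pairs differed by more than sampling noise. limma 3.58.1 (R 4.3.3) was fitted to log2(FPKM + 0.1) of 11451 genes with a mean of at least 0.5 FPKM, with 4 groups in 1 fit and a variance trend, and checked on simulated data. Calls needed a Benjamini-Hochberg adjusted p under 0.05 and had no fold threshold. Fold changes on this scale understate those of low genes. All members were named, with fold changes where the unadjusted p was under 0.05 (those of Spred2, of Etv5 with menthol, of Spry4, Myc and Ccnd1 were added after their values were seen), and list genes where called or among the 2 with the smallest p. A few genes under this rule are left unreported. The members and lists were chosen with earlier results of these data known. Alternatives were pseudocounts of 0.01 and 1, FPKM minimums of 1 and none, centred libraries, only the groups compared, a replicate block, each library left out, and limma voom.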

Additional observations from a re-analysis of the deposited data

How the results depend on the processing

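The count of 0 members called held in all comparisons and alternatives run, except that 1 member, Dusp6, was called for the Wnt3a main effect with limma voom and without control replicate 2 (leaving out each library gave 0 to 1 members). Of 255 log2 changes of named members under the alternatives, 253 kept their direction and their side of the threshold, and the other 2 were those Dusp6 values. These changes were chosen by an unadjusted p under 0.05, and the alternatives reuse the same libraries, so this count does not measure reproducibility. The number of members at an unadjusted p under 0.05 was less stable: 29 of 157 such counts under the alternatives moved by over 1.5 times, and it ran from 0 to 1 for menthol and 1 to 3 for Wnt3a against control, 0 to 2, 1 to 3 and 1 to 3 for the combination against Wnt3a, menthol and control, 0 to 2 for the interaction, and 1 to 2 and 3 to 4 for the menthol and Wnt3a main effects. The correlation of Dusp6 and Spry2 moved to 0.24 without 2 libraries. Over all genes the number of calls varied: leaving out 1 library gave 6 (control replicate 3) to 291 (Wnt3a replicate 3) for Wnt3a against control, instead of 50, and 0 to 15 instead of 12 for menthol against control, and limma voom gave 275 and 47. For the main effects of menthol and Wnt3a voom called 305 and 274 genes instead of 132 and 92, and for the combination 161 against Wnt3a instead of 6, 29 against menthol instead of 11, and 247 against control instead of 95. Leaving out 1 library gave 0 to 38, 3 to 14 and 41 to 100 calls for the combination against Wnt3a, menthol and control, 52 to 143 for the menthol main effect, 55 to 151 for the Wnt3a main effect and 0 to 1 for the interaction. With no FPKM minimum the calls were 2 for menthol, 9 for Wnt3a and 60 for the combination against control, and fits of only the groups compared gave 3, 17 and 49. The cause was not tested. The replicate block called 0 members in each of the 8 comparisons, and 157 and 135 genes for the main effects. Same-numbered libraries correlated at −0.055 to 0.15 in their deviations from the group means, 1 of 18 pairs over 0.1, and 6 of 12 libraries correlated best with one of their own number, so the numbers were not taken as pairs. The planned edgeR and DESeq2 fits were not run, and limma voom was the only fit to the recovered reads. Depth limits Spry1, with at most 4 reads. With 3 libraries a group the member intervals of the limma fit with all libraries reach a log2 difference of 0.33 between 2 groups and 0.44 for the interaction.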
